A study of Mus musculus with 24 samples.

Results

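This account follows 42 genes of the protein folding machinery of the endoplasmic reticulum (ER) and of the integrated stress response in cultured mouse ovarian surface epithelial cells. The genes were taken by symbol from 2 named sets: 23 ER genes (chaperones, disulfide isomerases, degradation factors and stress sensors) and 19 genes of the ATF4 type (transcription factors, feedback genes and amino acid genes). Each symbol matched 1 row of each expression table, which makes 42 of 35687 rows in the monolayer and spheroid table and 42 of 35688 rows in each of the other tables. All 42 passed the filter on low values in every table, although Psat1 passed in the monolayer and spheroid table through spheroid libraries only.

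The study profiled poly(A) RNA of this epithelium by sequencing, and its title asks for a transcriptional profile of stemness. There are 24 libraries in 8 groups of 3. The line m1102 was kept as untreated monolayers, as monolayers with 10 ng/mL TGFB1 (transforming growth factor beta 1, a cytokine) and as untreated spheroids on ultra low attachment plates. It was also kept as spheroids of cells that had received 10 ng/mL TGFB1 over 4 days beforehand. No treatment time is recorded here for the TGFB1 monolayers of this line. The same line carried either the lentiviral WPI vector alone or a construct that overexpresses Snail, a repressor of epithelial genes. A different line, from mice with floxed BRCA alleles, received adenovirus with GFP as the control or with Cre recombinase, which deletes the floxed part. All groups grew in serum-containing medium with EGF. Each experiment used 1 line. Nothing in the labels says that libraries within a group came from separate cultures, and the spread behind each p-value may therefore be technical.

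Proteins that enter the ER are folded by chaperones such as BiP (Hspa5), joined by disulfide isomerases and by the lectins calnexin and calreticulin, and sent to degradation by the Sel1l and Syvn1 complex when they fail. The sensors Ern1 (IRE1), Atf6 and Eif2ak3 (PERK) watch this load. Ern1 splices Xbp1 mRNA and Atf6 becomes a transcription factor, and both switch on chaperone and degradation genes, while Eif2ak3 phosphorylates eIF2alpha. Phosphorylated eIF2alpha, which other kinases also make when amino acids run short, slows translation in general but favours that of Atf4, whose targets make and import amino acids and, under lasting stress, include Ddit3 (CHOP). Secretory cells that make much matrix depend on the ER branch. These tables hold mRNA levels only, so neither splicing of Xbp1 nor ATF4 protein was measured.

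Both branches act through short promoter elements, and these are shown because the results below separate the genes by branch. Of the 42 genes, 38 had a promoter in the RefSeq table for GRCm38.p6 (41 promoters, each of 250 bases before and 50 after the start site). The ER stress element was searched as CCAAT, 9 further bases and CCACG on either strand, its variant II as ATTGG, 1 base and CCACG, and the C/EBP-ATF element as TGATG, 1 base and AA. The ER stress element was present in 8 of 20 ER genes (40%; Calr, Canx, Creld2, Dnajc3, Hsp90b1, Hspa5, Pdia6 and Syvn1) and in 0 of 18 ATF4-type genes, against 0.137% of the 27025 genes in the table. Variant II was found in Dnajb11 and Herpud1, 10% of the ER genes against 0.0444% of all genes. The C/EBP-ATF element was present in 5 of 18 ATF4-type genes (27.8%; Asns, Atf3, Chac1, Nupr1 and Trib3), in Herpud1 alone of the 20 ER genes, and in 4.51% of all genes. These are matches of letters and not bound sites. The genes were listed as members of these branches, so a share above that of all genes is no independent result. The 2 elements of Herpud1 do not overlap each other, and its variant II is the one shown. Capitals mark the element. Where the element lies on the other strand, its reverse complement is shown (CGTGG, 9 bases and ATTGG, or TT, 1 base and CATCA).
Calr, chr8:84847035-84847133, minus strand, upstream of the gene: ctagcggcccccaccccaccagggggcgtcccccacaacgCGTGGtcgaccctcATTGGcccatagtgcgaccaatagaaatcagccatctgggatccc
Creld2, chr15:88819480-88819578, plus strand, upstream of the gene: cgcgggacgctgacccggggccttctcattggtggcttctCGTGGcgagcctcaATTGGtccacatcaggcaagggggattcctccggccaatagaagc
Hsp90b1, chr10:86705598-86705694, minus strand, upstream of the gene: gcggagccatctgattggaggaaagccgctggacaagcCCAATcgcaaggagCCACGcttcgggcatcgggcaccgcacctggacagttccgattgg
Herpud1, chr8:94386337-94386427, plus strand, upstream of the gene and within Gm15890: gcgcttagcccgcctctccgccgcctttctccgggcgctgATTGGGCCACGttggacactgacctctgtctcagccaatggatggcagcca
Chac1, chr2:119351009-119351096, plus strand, upstream of the gene: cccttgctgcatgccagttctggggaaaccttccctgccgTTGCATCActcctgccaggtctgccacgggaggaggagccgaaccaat
Atf3, chr1:191183396-191183483, minus strand, intronic in the longer annotated transcript: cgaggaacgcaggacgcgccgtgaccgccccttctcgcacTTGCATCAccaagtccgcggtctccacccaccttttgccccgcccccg
For Hspa5 only the element is given, since longer annotated transcripts start before it (chr2:34772025-34772043, plus strand): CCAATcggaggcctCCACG

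Before the results, 5 facts on the libraries bear on them. Titles mark all 6 monolayer libraries, and none of the spheroid libraries, as re-analysed, so culture form and origin cannot be told apart. For untreated monolayers 1 and 2 the labels point to a single earlier sample, yet the values differ (r = 0.991 across genes). Snai1, the gene that encodes Snail, was at 9.81 to 13.7 scaled TPM with the vector and at 193 to 234 with the construct. Brca1 was at 3.66 to 12.3 in the controls and 4.09 to 11.1 after Cre, a gene total that does not check a deletion of part of the gene. BRCA1 controls 1 and 3 stood apart from control 2 (r = 0.866 to 0.917, against 0.979 between them) and read long transcripts low: the median deviation of the longest transcripts minus that of the shortest (upper and lower tertiles) was -0.87 and -1.17 on the log2 scale in these libraries and 0.47 to 0.56 in the other 4 of that table. The markers of the labelled cell type were not kept alike in m1102. In untreated monolayers 11 of 12 were at 1 scaled TPM or more, and in TGFB1 spheroids 8 of 12. Krt8 stayed at or under 0.508 in every group of the line, and from untreated monolayers to TGFB1 spheroids the mean of Krt7 went from 329 to 1.40, that of Upk3b from 276 to 0.99 and that of Msln from 496 to 21.9, while Krt18 was at 196 and 189.

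Levels are given in scaled TPM, the deposited length-corrected expression value, in which genes of 1 table can be compared. In untreated monolayers the ER genes spanned a wide range. The most abundant was Calr, the lectin chaperone calreticulin, at 859, 922 and 917. Hspa5 was at 808, 863 and 887, which overlapped with Calr. Hsp90b1 (endoplasmin, a chaperone for receptors and integrins) followed at 822, 836 and 840, a range inside that of Hspa5. At the low end stood the sensors, with Ern1 at 24.5, 22.6 and 22.7 and Eif2ak3 at 8.62, 9.45 and 9.90. Among ATF4-type genes, Cebpb, a leucine zipper partner of ATF4, was highest at 472, 457 and 409, and Slc3a2, the heavy chain of amino acid transporters, was at 324, 347 and 330. Psat1, an enzyme of serine synthesis, stayed at 0.224 to 0.420, whereas in the floxed line, a separate table, it was at 153 to 189 in the controls.

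**Figure D1:**
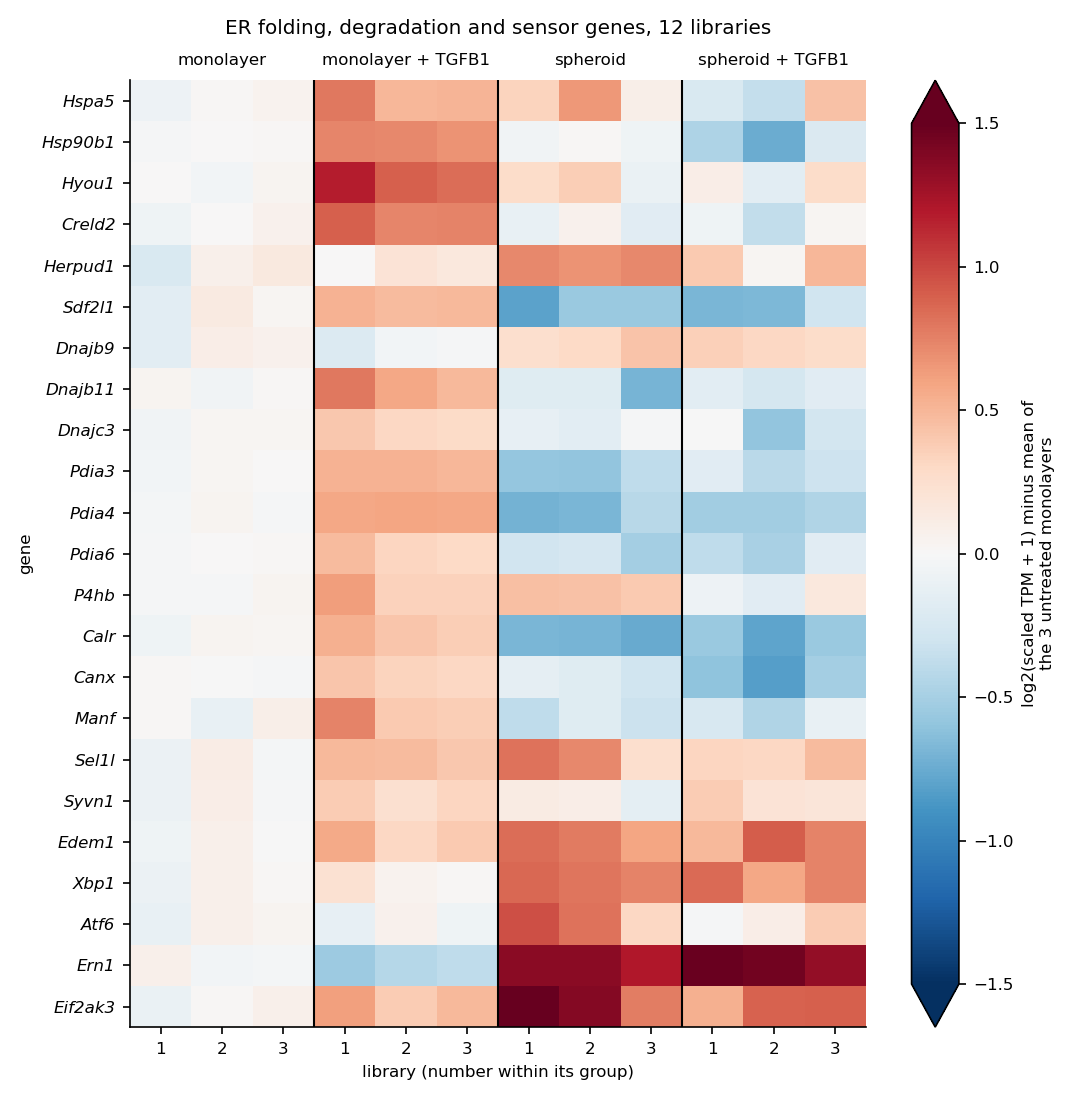
Each row is 1 ER gene and each column 1 library of the monolayer and spheroid table; colour gives log2(scaled TPM + 1) minus the mean of the 3 untreated monolayers. TGFB1 monolayers are red in most rows, while spheroids are red for Ern1, Eif2ak3, Xbp1 and Edem1 and blue for Calr, Pdia3 and Pdia4.

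Spheroid culture of untreated cells was compared with untreated monolayers, a difference in culture form without TGFB1 that cannot be told apart from library origin. The ER list split by role: 9 of 23 genes rose and 6 fell, with a median log2 fold change of 0.02, beside 0.0061 for all genes. Of all genes tested, 27.6% were called higher and 27.7% lower. The members' shares were 39.1% and 26.1%, so the list as a whole was not far from the background. A call here means a Benjamini-Hochberg adjusted p under 0.05 in limma over all genes tested, and fold changes are on the log2(scaled TPM + 1) scale, which understates changes of low genes. In bulk RNA, fewer cells of a type and less RNA per cell cannot be told apart.

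All 4 genes of the sensor group rose. Ern1, the kinase and nuclease that splices Xbp1, went from 24.5, 22.6 and 22.7 to 61.1, 61.1 and 54.6 (log2 fold change 1.30 ± 0.081 SE, adjusted p = 4.94e-07). The 2 groups were far apart. Eif2ak3 went from 8.62, 9.45 and 9.90 to 30.0, 25.9 and 16.5 (1.24 ± 0.19, adjusted p = 0.000226), with untreated spheroid 3 the lowest of the spheroids. Xbp1, the factor that Ern1 activates, rose from 98.3, 110.0 and 106 to 190, 183 and 176 (0.80 ± 0.088, adjusted p = 2.38e-05). Atf6 rose less evenly, by 0.70 ± 0.16. Of the 4 degradation genes 3 rose: Edem1, which draws misfolded glycoproteins out of folding, from 23.6, 26.1 and 24.6 to 45.0, 43.3 and 37.7 (0.74 ± 0.12, adjusted p = 0.000308), Herpud1 by 0.70 ± 0.13 and Sel1l by 0.60 ± 0.13. Syvn1, the ubiquitin ligase of the same complex, was at 0.02 ± 0.094 (adjusted p = 0.864).

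Of the 15 folding genes (chaperones, isomerases and lectins) 2 rose, 6 fell and 7 did not pass. Among the 4 disulfide isomerases, Pdia4 (-0.60 ± 0.079), Pdia3 (-0.52 ± 0.084) and Pdia6 (-0.35 ± 0.096) fell. P4hb, the isomerase that is also a subunit of collagen prolyl hydroxylase, rose by 0.43 ± 0.10. Calr fell to 558, 554 and 534 scaled TPM (-0.71 ± 0.083, adjusted p = 3.94e-05), below every monolayer, and Canx was at -0.21 ± 0.086 (adjusted p = 0.0612). Among 9 chaperones and co-chaperones, Dnajb9, a co-chaperone of BiP that restrains Ern1, rose (0.33 ± 0.088), and Sdf2l1 (-0.64 ± 0.12) and Dnajb11 (-0.35 ± 0.13) fell. Hspa5 itself was at 1076, 1342 and 906 in spheroids, all above the monolayers, but did not pass the test (0.36 ± 0.20, adjusted p = 0.149). Of the 8 genes with an ER stress element in the promoter, 0 were called higher and 2 lower, beside 9 and 6 of the 23 ER genes.

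Of the 19 ATF4-type genes 5 rose, 4 fell and 10 did not pass (26.3% higher and 21.1% lower), shares at or below the 27.6% and 27.7% of all genes. The genes with the largest changes follow. Slc7a5, the light chain of the leucine transporter, rose from 40.5, 28.7 and 34.5 to 200, 179 and 100 scaled TPM (2.13 ± 0.34, adjusted p = 0.000318). Atf3, a stress-induced transcription factor, rose from 1.67, 1.42 and 1.82 to 14.2, 18.3 and 4.03 (2.11 ± 0.48, adjusted p = 0.00306). Nupr1, a small stress-induced chromatin protein, rose from 130, 171 and 155 to 725, 654 and 267 (1.73 ± 0.32, adjusted p = 0.000996). For each of these genes the lowest spheroid value, that of untreated spheroid 3, was still above every monolayer. Phgdh, the entry enzyme of serine synthesis, fell from 180, 150 and 180 to 31.7, 33.8 and 19.7 (-2.57 ± 0.21, adjusted p = 3.51e-06), and Chac1, which degrades glutathione, fell by 1.42 on the log2 scale (SE 0.45). Ppp1r15a, which brings a phosphatase to eIF2alpha, rose by 1.17 ± 0.25. Psat1 is counted among the 5, but it entered the test only through spheroid libraries (1.05, 1.73 and 3.25 scaled TPM in untreated spheroids), so its call supports nothing. Sesn2 (-0.43 ± 0.12) and Cebpb (-0.69 ± 0.27) fell.

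Untreated spheroid 3 was the lowest of its 3 libraries in 18 of 19 ATF4-type genes (94.7%, against 41.2% of all genes) and in 16 of 23 ER genes. Atf4 was at 246, 204 and 226 in monolayers and at 358, 356 and 184 in spheroids, so the groups overlap only through that library (0.35 ± 0.24, adjusted p = 0.236). Without it, Atf4 was at 0.66 (adjusted p = 0.00476) and Trib3, a pseudokinase that ATF4 induces, at 1.34 (adjusted p = 0.00592), both then called, and Cebpb (-0.45, adjusted p = 0.176) and Dnajb11 (-0.18, adjusted p = 0.116) were no longer called. ATF4-type calls then numbered 7 higher and 3 lower. Ddit3 was at 143, 104 and 122 in monolayers and at 186, 208 and 92.1 in spheroids, again split by that library (0.33 ± 0.37, adjusted p = 0.48).

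**Figure D2:**
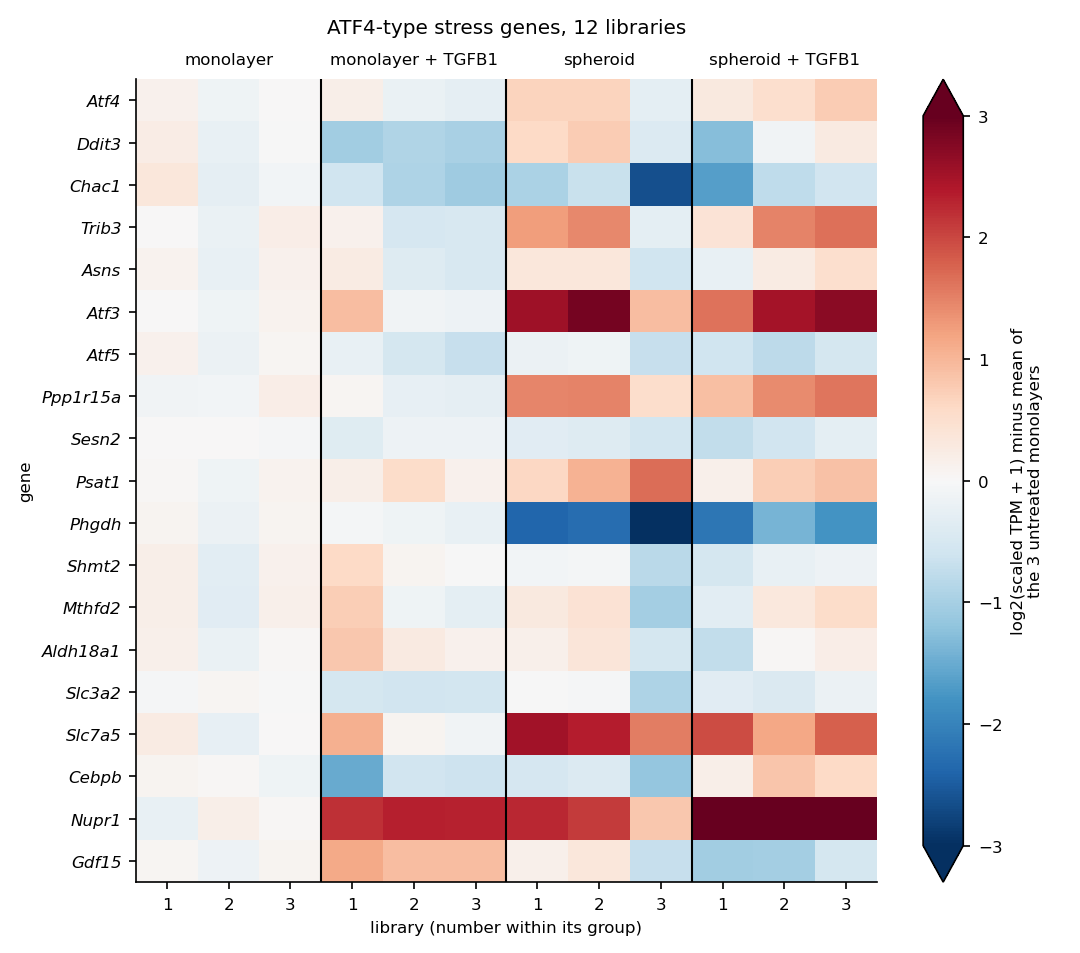
Each row is 1 ATF4-type gene and each column 1 library, with colour as log2(scaled TPM + 1) minus the mean of the 3 untreated monolayers. Untreated spheroid 3 is bluer than spheroids 1 and 2 in most rows; Phgdh is blue in all 6 spheroid libraries and Nupr1 red in every library outside the untreated monolayers.

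Other genes of these pathways were taken from lists drawn up by textbook role. Their shares stand beside the 27.6% of all genes called higher and the 27.7% called lower. Of 66 other ER genes tested, 20 rose and 22 fell (30.3% and 33.3%), not far from these shares. Ero1l, the oxidase that recharges disulfide isomerases and a member of both of these lists, had the largest change of that list, from 63.4 ± 5.09 (SD, n = 3) to 943 ± 351 scaled TPM. Of 48 other ATF4-type genes 19 rose and 8 fell (39.6% and 16.7%). Slc6a9, a glycine transporter, went from 10.5 ± 0.351 to 64.5 ± 2.81. Among 15 genes of the eIF2 kinases, phosphatases and eIF2B, 0 rose and 6 fell (0% and 40%), led by Eif2ak2 at -0.56 ± 0.087. Of 26 heat shock genes of the cytosol and mitochondria, 7 rose, among them Cryab and Hspa1b, and 13 fell (26.9% and 50%). Summed marker levels differed in this comparison too. The summed level of 12 ovarian surface and mesothelial markers was 2282 to 2422 in untreated monolayers and 290 to 503 in untreated spheroids. That of 8 granulosa and theca markers was 309 to 351 and 1495 to 2360, with Fshr at 0 in both. Most of it was Star (means 293 and 1632), while Foxl2 was at 18.1 and 25.8. The sum of 7 fibroblast markers was 1650 to 1878 and 369 to 530, with Lum at 0 in the spheroids. Most of it was Dcn (1332 and 245), while Col1a2 was at 139 and 153 and Pdgfra at 6.21 and 7.8. Sums of leukocyte markers were 26.4 to 36.7 and 41.4 to 112, and endothelial sums were at most 6.67 with Cldn5 at 0. Their part in these results was not tested.

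TGFB1 in monolayers raised most of the ER list. In this comparison 15 of 23 ER genes rose and 1 fell (65.2% and 4.35%), with a median log2 fold change of 0.44, whereas 9.12% of all genes were called higher and 7.79% lower, with a median of 0.0135. Hyou1, a large ER chaperone that assists BiP, rose from 121, 117 and 124 to 275, 225 and 216 scaled TPM (0.97 ± 0.14, adjusted p = 0.00149). Creld2, a small ER protein induced by misfolding, rose from 60.9, 64.0 and 66.9 to 119, 107 and 108 (0.79 ± 0.11, adjusted p = 0.000963). Hsp90b1 rose from 822, 836 and 840 to 1386, 1370 and 1329 (0.71 ± 0.11, adjusted p = 0.00215). Dnajb11, a co-chaperone that loads clients onto BiP, rose from 74.2, 69.5 and 72.7 to 125, 108 and 101 (0.62 ± 0.13, adjusted p = 0.00951). For these genes every TGFB1 library lay above every untreated one.

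The rise covered 6 of 9 chaperones and co-chaperones, 4 of 4 disulfide isomerases (0.37 to 0.58), both lectin chaperones (Calr 0.44 ± 0.083 and Canx 0.35 ± 0.086) and 3 of 4 degradation genes. Of the 4 genes of the sensor group, 0 were called higher. Eif2ak3 was at 14.8, 12.4 and 13.4 with TGFB1, above the untreated 8.62, 9.45 and 9.90, without passing the test. Ern1 fell, from 24.5, 22.6 and 22.7 to 15.6, 17 and 17.7 (-0.45 ± 0.081, adjusted p = 0.00403). Xbp1 was at 122, 109 and 106 with TGFB1, overlapping the untreated 98.3 to 110.0 (0.10 ± 0.088, adjusted p = 0.492). Hspa5 reached 1473, 1208 and 1211, above all untreated libraries, and missed the threshold in the fit of all 12 libraries (0.60 ± 0.20, adjusted p = 0.0634). When only the 6 monolayer libraries were fitted it passed (adjusted p = 0.00416). Of the 8 genes with an ER stress element, 6 were called higher, beside 15 of the 23 ER genes and 9.12% of all genes. With TGFB1 in spheroids 0 of these 8 rose and 2 fell, and in the interaction of TGFB1 and culture 0 were higher and 4 lower. With Snail 0 passed, and after Cre in the floxed line 1 rose. Whether genes with the element differed from the rest of the list was not tested.

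Few ATF4-type genes were called with TGFB1 in monolayers. Here 2 of 19 rose and 1 fell (10.5% and 5.26%), near the 9.12% and 7.79% of all genes. Nupr1 rose from 130, 171 and 155 to 690, 767 and 753 scaled TPM (2.28 ± 0.32, adjusted p = 0.00128). Gdf15, a secreted stress cytokine, stayed low but rose from 2.74, 2.23 and 2.82 to 6.84, 5.82 and 5.84 (1.0 ± 0.25, adjusted p = 0.0198). Cebpb fell from 472, 457 and 409 to 155, 300.0 and 291 (-0.90 ± 0.27, adjusted p = 0.0443), with TGFB1 monolayer 1 the lowest. Atf4 was at 256, 195 and 188, overlapping the untreated 204 to 246 (-0.09 ± 0.24, adjusted p = 0.848). Ddit3 was lower in all TGFB1 monolayers, at 58.2, 64.6 and 61.8 against 104 to 143, without passing in the fit of 12 libraries (-0.98 ± 0.37, adjusted p = 0.0993). It passed when only the 6 monolayers were fitted (adjusted p = 0.0019), as did Chac1, Slc3a2 and Atf5, all lower.

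TGFB1 monolayer 1 was the highest of its group in 18 of 23 ER genes, against 42.2% of all genes. Without it 8 ER genes were called in place of 16 (34.8% in place of 69.6%), while the share of all genes called in either direction went from 16.9% to 9.38%. Without untreated monolayer 1, 2 or 3 the number of ER calls was 8, 9 or 10, with 9.47%, 9.88% and 9.07% of all genes called, and in each of these cases 1 ATF4-type gene was called in place of 3. Of 66 other ER genes, 18 rose (27.3%) and 3 fell (4.55%), beside 9.12% and 7.79% of all genes. Those that rose included Creb3l2 (1.52 ± 0.20), a membrane-bound transcription factor of secretory cells, and Fkbp10 (0.87 ± 0.15), a collagen prolyl isomerase. Of 48 other ATF4-type genes 3 rose and 3 fell (6.25% each way), Ndrg1 at -1.0 ± 0.17. Of 26 heat shock genes outside the ER 2 rose (Hspa4 and Dnajb1) and 1 fell (7.69% and 3.85%), near the shares of all genes. The sum of ovarian surface and mesothelial markers was 1201 to 1566 with TGFB1, that of granulosa and theca markers 109 to 211, and that of fibroblast markers 962 to 1076. Leukocyte sums were at most 17.3 and endothelial sums at most 2.24. Their part was not tested.

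TGFB1 before spheroid culture was compared with untreated spheroids. Of the 23 ER genes 0 rose and 5 fell (0% and 21.7%; 8 had an unadjusted p under 0.05), while 18.8% of all genes were called higher and 16.8% lower. With columns scaled to equal sums, 1589 genes were higher and 3751 lower in place of 2544 and 2266, and 8 ER genes fell. The summed values of TGFB1 spheroids 1, 2 and 3 were 1020096, 1166749 and 1087897, against 955433 to 959545 in untreated spheroids. Libraries 2 and 3 held 13.9% and 12.1% of it in mitochondrial genes, against 7.24% in library 1. The part of these differences in the calls was not tested. Atf6 fell from 94.1, 84.4 and 59.6 to 47.3, 51.1 and 62.6 scaled TPM (-0.54 ± 0.16, adjusted p = 0.0205), and the groups overlap. P4hb fell from 632, 625 and 606 to 439, 409 and 517 (-0.46 ± 0.10, adjusted p = 0.00566). Hsp90b1 fell from 804, 840 and 798 to 604, 498 and 717 (-0.44 ± 0.11, adjusted p = 0.0108). Canx, the membrane-bound lectin chaperone, fell from 414, 399 and 369 to 299, 257 and 319 (-0.44 ± 0.086, adjusted p = 0.00284). Apart from Atf6, these groups did not overlap. The fifth gene was Herpud1 (-0.40 ± 0.13).

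Hspa5 was at 1076, 1342 and 906 without and 728, 664 and 1156 with TGFB1 in spheroids, overlapping groups (-0.41 ± 0.20, adjusted p = 0.135). Xbp1 was at 190, 183 and 176 without and 189, 156 and 176 with it (-0.08 ± 0.088, adjusted p = 0.507). Among ATF4-type genes 3 of 19 rose and 1 fell (15.8% and 5.26%). Nupr1 rose again, from 725, 654 and 267 to 2528, 1716 and 1472 (1.88 ± 0.32, adjusted p = 0.00142). Cebpb rose here, from 313, 337 and 198 to 503, 788 and 675 (1.22 ± 0.27, adjusted p = 0.00551). Phgdh rose from 31.7, 33.8 and 19.7 to 36.7, 64.1 and 48.5 (0.79 ± 0.21, adjusted p = 0.0152). Gdf15 fell from 2.96, 3.56 and 1.21 to 0.736, 0.773 and 1.48 (-0.80 ± 0.25, adjusted p = 0.028), levels near the filter.

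Atf4, at 276, 322 and 379 with TGFB1, did not pass (0.17 ± 0.24, adjusted p = 0.598), nor did Ddit3 at 49.4, 113 and 146 (-0.70 ± 0.37, adjusted p = 0.163). TGFB1 spheroid 1 was the lowest of its group in 15 of 19 ATF4-type genes, against 40.2% of all genes. Without untreated spheroid 3, 2 ER genes were higher (Pdia3 and Pdia4) and 6 lower, and 3 ATF4-type genes were higher and 4 lower, Ddit3 among them (-1.07, adjusted p = 0.0374). In a fit of the 6 spheroid libraries alone 2 ER genes and 2 ATF4-type genes were called. Without untreated spheroid 1 or 2 the ER calls numbered 3, and without TGFB1 spheroid 2 the ATF4-type calls numbered 2. Of the other ER genes 19 of 66 rose and 8 fell (28.8% and 12.1%, beside 18.8% and 16.8% of all genes). Ero1l was down (-2.30 ± 0.49) and Sec11c, a signal peptidase subunit, up (1.42 ± 0.11). Of the other ATF4-type genes 6 of 48 rose and 10 fell (12.5% and 20.8%). Slc7a11, the cystine transporter, rose from 11 ± 5.42 to 39.9 ± 7.19 scaled TPM (SD, n = 3).

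**Figure D3:**
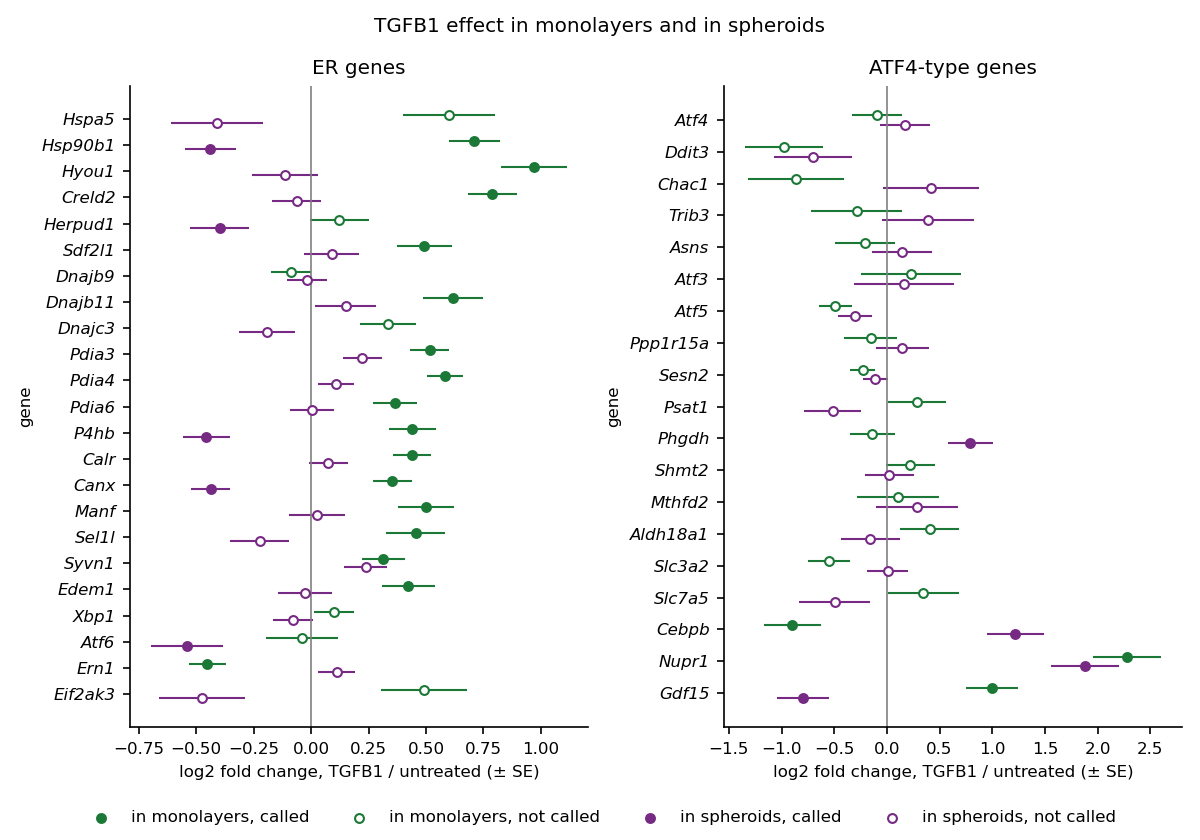
Points give the log2 fold change of TGFB1 over untreated cells for each ER gene (left) and ATF4-type gene (right), in monolayers (green) and in spheroids (purple), with bars of 1 SE; filled points passed the test. In the left panel 15 green points are filled to the right of 0 and 5 purple points to its left.

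The difference between the TGFB1 effects was tested directly, as the effect in spheroids minus that in monolayers. Spheroid cells had received TGFB1 before spheroid culture, and only the monolayers are marked as re-analysed. The difference therefore cannot be assigned to culture form apart from the timing of TGFB1 and the origin of the libraries. In this interaction 9 of 23 ER genes were lower and 1 higher (39.1% and 4.35%), beside 7.11% of all genes lower and 8.72% higher. The median over the ER list was -0.48, that of all genes -0.00934. Columns scaled to equal sums moved the median of all genes to -0.21 and that of the ER list to -0.70, with 19 ER genes lower, and 731 genes of all higher and 1914 lower in place of 1178 and 960. Hsp90b1 had the largest difference (-1.15 ± 0.16, adjusted p = 0.000995): it rose with TGFB1 in monolayers and fell in spheroids, with the levels given above. Hyou1 differed by -1.09 ± 0.20 (adjusted p = 0.0053), with spheroid levels of 147, 156 and 112 without and 129, 108 and 146 with TGFB1. Hspa5 differed by -1.01 ± 0.28 (adjusted p = 0.0346). Eif2ak3 differed by -0.96 ± 0.26 (adjusted p = 0.0321), at 14.8, 12.4 and 13.4 with TGFB1 in monolayers and 13.9, 18 and 18.3 in spheroids. P4hb, Creld2, Canx, Sel1l and Pdia4 were also lower, by -0.90 to -0.47. Ern1 differed the other way (0.56 ± 0.11, adjusted p = 0.00789), and was not called with columns scaled to equal sums.

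Xbp1 (-0.18 ± 0.12, adjusted p = 0.364), Atf4 (0.27 ± 0.33, adjusted p = 0.641) and Ddit3 (0.27 ± 0.52, adjusted p = 0.775) did not pass. Of the ATF4-type list, Cebpb (2.12 ± 0.38, adjusted p = 0.00455) was higher and Gdf15 (-1.79 ± 0.35, adjusted p = 0.00651) lower, 5.26% each way. Both had opposite called changes in the 2 cultures. Nupr1 rose in each culture, and its difference of -0.40 ± 0.46 did not pass (adjusted p = 0.61). Without untreated spheroid 3, 13 ER genes were lower and 1 higher. Without TGFB1 monolayer 1, Hspa5 (adjusted p = 0.073), Eif2ak3 (adjusted p = 0.0658) and Sel1l (adjusted p = 0.0544) were no longer called. Of 66 other ER genes 4 were higher and 8 lower (6.06% and 12.1%, beside 8.72% and 7.11% of all genes), Ero1l at -2.31 ± 0.69.

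Spheroid culture of TGFB1-treated cells, against TGFB1-treated monolayers, lowered most folding genes. Here 3 of 23 ER genes rose and 14 fell (13% and 60.9%), with 25.3% of all genes higher and 26.5% lower. Equal sums changed the calls over all genes to 2423 higher and 4898 lower from 3424 and 3585, and left 14 ER genes lower. The ER median was -0.65, or -0.82 under equal sums, in which the median of all genes was -0.15. This comparison shares its TGFB1 monolayers with the one on TGFB1 in monolayers. Culture form cannot be told apart here from the timing of TGFB1 and the origin of the libraries. Hsp90b1 fell from 1386, 1370 and 1329 to 604, 498 and 717 scaled TPM (-1.18 ± 0.11, adjusted p = 7.92e-06). Pdia4 fell from 323, 328 and 324 to 151, 151 and 158 (-1.08 ± 0.079, adjusted p = 1.21e-06). Calr fell from 1301, 1203 and 1158 to 608, 520 and 611 (-1.07 ± 0.083, adjusted p = 1.94e-06). The groups were well apart in each case. Hspa5 fell by 0.65 on the log2 scale (SE 0.20, adjusted p = 0.0184), from 1473, 1208 and 1211 to 728, 664 and 1156, and without TGFB1 monolayer 1 it was no longer called (adjusted p = 0.0659).

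By role, 8 of 9 chaperones and co-chaperones, 4 of 4 isomerases and both lectin chaperones fell, 0 of 4 degradation genes passed, and 2 of 4 genes of the sensor group rose. Ern1 rose from 15.6, 17 and 17.7 to 66.6, 65.4 and 59.4 (1.87 ± 0.081, adjusted p = 3.29e-08). Xbp1 rose from 122, 109 and 106 to 189, 156 and 176 (0.62 ± 0.088, adjusted p = 0.000147). Of the 8 genes with an ER stress element, 7 fell, beside 14 of the 23 ER genes and 26.5% of all genes. The third riser was Dnajb9 (0.40 ± 0.088).

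Of the ATF4-type genes 7 of 19 rose and 2 fell (36.8% and 10.5%), and under equal sums 6 rose and 5 fell. Atf3 rose from 4.02, 1.43 and 1.38 to 7.16, 13.8 and 16.1 scaled TPM (2.05 ± 0.48, adjusted p = 0.004). Trib3 rose from 28.7, 18.3 and 18.5 to 35.5, 75.1 and 85.3 (1.47 ± 0.43, adjusted p = 0.0145). Atf4 passed narrowly, from 256, 195 and 188 to 276, 322 and 379 (0.61 ± 0.24, adjusted p = 0.0487), and not under equal sums (0.44, adjusted p = 0.132). Ddit3 did not (0.60 ± 0.37, adjusted p = 0.2). Ppp1r15a, Cebpb, Nupr1 and Slc7a5 rose by 1.29 to 1.47. Gdf15 fell from 6.84, 5.82 and 5.84 to 0.736, 0.773 and 1.48 (-1.86 ± 0.25, adjusted p = 9.9e-05). Phgdh fell from 162, 155 and 145 to 36.7, 64.1 and 48.5 (-1.64 ± 0.21, adjusted p = 8.61e-05). In the other lists, 12 of 66 ER genes rose and 17 fell (18.2% and 25.8%, beside 25.3% and 26.5% of all genes). Serpinh1, the collagen chaperone, fell from 1615 ± 191 to 563 ± 55.5 (SD, n = 3). Of 48 other ATF4-type genes 17 rose and 8 fell (35.4% and 16.7%). The ovarian surface and mesothelial marker sum in TGFB1 spheroids was 267 to 496, the granulosa and theca sum 429 to 771, and the fibroblast sum 538 to 1334. Endothelial sums were 26 to 52.4 there, with Cdh5 alone at 23.9 to 51.3 and Cldn5 at 0. Leukocyte sums were 37.8 to 92.3. Oviductal and oocyte marker sums were at most 19.8 and 23.8 in all 4 groups of this table. Their part was not tested.

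**Figure D4:**
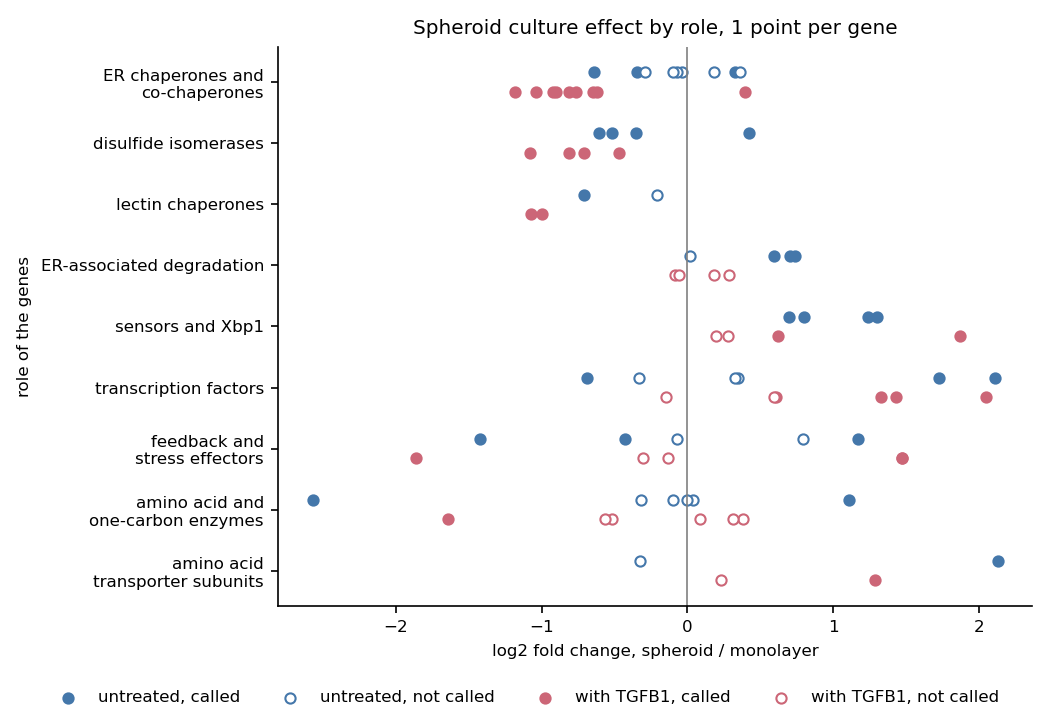
Each point is 1 gene, placed by its log2 fold change in spheroids over monolayers and by its role, for untreated (blue) and TGFB1-treated cells (red); filled points passed the test. Points of the sensor group lie to the right of 0 in both comparisons, and both lectin chaperones lie to its left.

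Snail overexpression left the 42 genes without a call. In limma 0 of 23 ER genes and 0 of 19 ATF4-type genes passed in either direction, where 0.572% of all genes were called higher and 1.14% lower. At an unadjusted p under 0.05, as 1813 of all genes had, there was 1 ER gene, Atf6 (-0.21 ± 0.050, adjusted p = 0.095), and 1 ATF4-type gene, Slc7a5 (-0.20 ± 0.084, adjusted p = 0.321). Atf6 was at 51.4, 51.8 and 50.5 with the vector and at 43.8, 44.0 and 44.3 with Snail, ranges that do not overlap. In the authors' deposited table, Atf6 is the only one of the 42 with a q under 0.05 (q = 0.0213), where 3.83% of the rows of that table have such a q. Hspa5 was at 872, 806 and 786 with the vector and 879, 802 and 770 with Snail (-0.0084 ± 0.067, adjusted p = 0.974). Xbp1 was at 111, 95.6 and 89.2 and at 102, 89.5 and 88.4 (-0.07 ± 0.094). Atf4 was at 281, 260 and 231 and at 297, 244 and 266 (0.06 ± 0.094). Ddit3 was at 147, 115 and 111 and at 125, 94.8 and 98.2 (-0.23 ± 0.14). These groups overlap. Fold changes over the ER list ran from -0.21 to 0.11 and over the ATF4-type list from -0.31 to 0.22. Standard errors were 0.043 to 0.12 for ER genes, and Atf3, whose vector libraries were at 12.2, 2.32 and 5.04, had the widest of all at 0.55. In the other lists Ppic rose (0.27 ± 0.049), and Slc38a1 (-0.42 ± 0.064) and Hspa4l (-0.53 ± 0.086) fell.

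After Cre in the floxed line, genes of both lists passed the test as higher than in the controls, led by Herpud1 and Chac1, and the number that passed changed with the control libraries used. With all 6 libraries, 7 of 23 ER genes rose and 0 fell (30.4% and 0%), beside 9.04% of all genes higher and 5.27% lower. The ER median was 1.03, against 0.17 for all genes. Herpud1, a membrane scaffold of ER-associated degradation, went from 30.7, 34.2 and 23.4 to 421, 241 and 160 scaled TPM (3.08 ± 0.37, adjusted p = 0.00468). Its lowest library after Cre was far above every control. Ern1 went from 3.59, 16.6 and 1.31 to 35.9, 25.9 and 36.9 (2.55 ± 0.68, adjusted p = 0.0493). Sel1l, the adaptor of the degradation complex, went from 8.35, 30.9 and 6.46 to 83.6, 51.0 and 43.8 (2.16 ± 0.56, adjusted p = 0.0467). Hyou1 went from 46.6, 96.7 and 22.6 to 308, 182 and 157 (2.11 ± 0.53, adjusted p = 0.0432). In Ern1, Sel1l and Hyou1, control 2 was well above controls 1 and 3, and still below every deleted library.

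Dnajb9 (2.00 ± 0.32), Syvn1 (1.65 ± 0.37) and Xbp1 also rose. Xbp1 went from 61.4, 72.4 and 48.4 to 204, 163 and 129 (1.42 ± 0.26, adjusted p = 0.0196). Hspa5 was at 618, 823 and 443 in the controls and 2522, 1595 and 997 after Cre, above all of them, and missed the threshold (1.38 ± 0.45, adjusted p = 0.0708). The isomerases and lectins had 0 calls of 6, with Pdia3 at -0.06 ± 0.26 and Canx at 1.03 ± 0.28. Of the 4 degradation genes 3 rose, and of the sensor group 2 of 4. The same 7 genes, with Eif2ak3 added, have a q under 0.05 in the authors' deposited table, all with a positive coefficient, where 21.9% of all rows of that table have such a q.

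Of the ATF4-type genes, 3 of 19 rose and 0 fell (15.8% and 0%). Chac1 went from 40.8, 44.5 and 31.9 to 189, 124 and 166 (2.00 ± 0.25, adjusted p = 0.00523). Sesn2, a brake on mTORC1 signalling, went from 10.2, 15.9 and 9.05 to 34.0, 35.2 and 23.1 (1.34 ± 0.30, adjusted p = 0.0329). Aldh18a1, an enzyme of proline synthesis, went from 38.7, 62.3 and 29.2 to 123, 104 and 79.5 (1.26 ± 0.33, adjusted p = 0.0461). The groups of these genes do not overlap. Atf4 itself was at 548, 312 and 600 in the controls and 498, 455 and 406 after Cre (-0.05 ± 0.33, adjusted p = 0.912), and Ddit3 at 181, 70.8 and 311 and at 495, 271 and 167 (0.82 ± 0.61, adjusted p = 0.314). Their groups overlap, and control 2 was the lowest library in both. In the authors' deposited table, Chac1, Sesn2 and Aldh18a1 have a positive coefficient and Phgdh a negative one at a q under 0.05. These are 4 of the 19 ATF4-type genes, near the 21.9% of all rows of that table with such a q.

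The controls that stood apart bear on all of these values. Relative to control 2, controls 1 and 3 had medians of -0.31 and -0.57 over the ER list and 0.12 and 0.36 over the ATF4-type list, against -0.21 for all genes in each. Among members with long transcripts, controls 1 and 3 read lower than control 2 in Atf6 (7246 bases, at 9.61, 34.8 and 6.09 scaled TPM in the controls), Ern1 (6946 bases), Sel1l (6300 bases) and Edem1 (5817 bases). The same held for Dnajc3 (5141 bases), Eif2ak3 (4513 bases), Hyou1 (4489 bases) and Canx (4281 bases). In the shortest members, Nupr1 (829 bases), Ddit3 (890 bases), Sdf2l1 (1108 bases) and Creld2 (1366 bases), both controls read higher than control 2. In Chac1 (1637 bases) and Herpud1 (1952 bases) both read lower. The part of transcript length in the comparison was not tested. Against control 2 alone, a choice made after seeing the data, 5.03% of all genes were called; 0 of 23 ER genes were and, of the ATF4-type list, Chac1 (1.8 ± 0.26, adjusted p = 0.0414). At this setting the lone control is assumed to vary like the deleted group. Herpud1 was then at 2.85 (adjusted p = 0.0604), Dnajb9 at 1.59, Xbp1 at 1.16, Hyou1 at 1.09, Ern1 at 0.93 and Sel1l at 0.87. The ER median was 0.85 and the ATF4-type median 0.68, beside 0.0283 for all genes. All 3 deleted libraries lay above control 2 in 19 of 23 ER genes (82.6%) and 14 of 19 ATF4-type genes (73.7%), compared with 37.9% of all genes. With control 2 left out, 14 ER genes (60.9%) and 10 ATF4-type genes (8 higher and 2 lower) were called, beside 66.2% of all genes. Without control 1 or 3 the calls were 1 and 2 ER genes and 1 ATF4-type gene each, beside 1.81% and 4.94% of all genes. Leaving out a Cre library left 1 ER call each time and, of the ATF4-type genes, 0 without library 1 and 1 without library 2 or 3, beside 0.463%, 1.47% and 1.32% of all genes. Equal sums gave 705 genes higher and 173 lower over all genes in place of 1155 and 673, 3 ER calls, and a median of 0.63 for all genes beside 1.56 for the ER list.

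**Figure D5:**
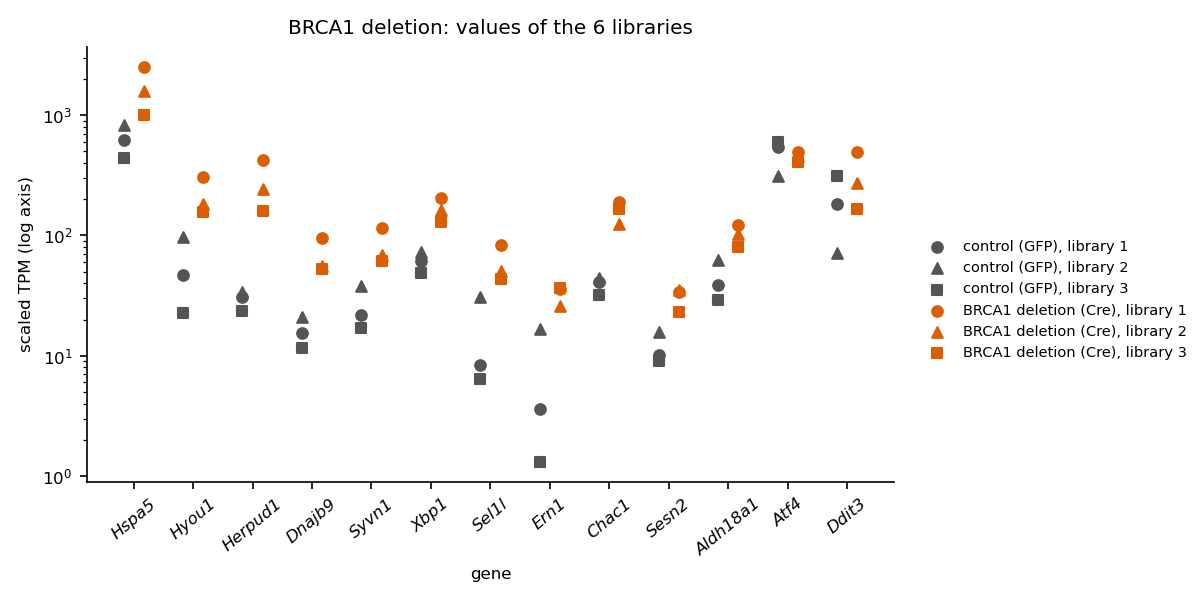
Scaled TPM on a log axis for 13 genes in the 3 control (grey) and 3 Cre libraries (orange), with marker shape giving the library number. Control 2 (triangle) lies well above controls 1 and 3 for Hyou1, Sel1l and Ern1. Of the 13 genes, only Atf4 and Ddit3 overlap between the groups.

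The Cre libraries differed among themselves in a regular order. Library 1 was the highest of the 3 in 22 of 23 ER genes (95.7%, against 20.6% of all genes) and in 14 of 19 ATF4-type genes. Library 3 was the lowest in 19 and 14 (82.6% and 73.7%, against 40.3% of all genes). Hspa5 spanned 997 to 2522 in this group, a wider range than in any other group. Beyond the 42 genes, 16 of 49 other ATF4-type genes rose and 1 fell (32.7% and 2.04%), including Fgf21, a stress hormone, from 1.85 ± 1.13 to 21.2 ± 9.49, and Vldlr (3.36 ± 0.64). Slc38a1 fell by 3.47 on the log2 scale (SE 0.47). Of 65 other ER genes 3 rose and 2 fell (4.62% and 3.08%, beside 9.04% and 5.27% of all genes), Txndc11 at 1.95 ± 0.26. Ppp1r15b, the constitutive partner of the eIF2alpha phosphatase, rose (1.32 ± 0.32), and of 25 heat shock genes Lonp1 rose and Hspb1 fell. Marker sums for the ovarian surface were 3049 to 3492 in controls and 2988 to 3124 after Cre, with members at different levels in each direction: mean Krt18 was 535 and 139, Krt7 280 and 107, Krt8 197 and 67.7, and Msln 81.6 and 213. Oocyte marker sums were 10.9 to 25.6 and 1.40 to 2.06, with Ddx4 alone at 10.6 to 25 and 0.538 to 0.988. Sums for granulosa and theca were 92.5 to 122 and 257 to 357, and for fibroblasts 496 to 903 and 896 to 1253. Leukocyte sums were 12.7 to 27.8 and 10.0 to 19.1, and endothelial sums at most 14.6, with Cldn5 at 0. Their part was not tested.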

How the data were processed

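Expression was measured by poly(A) RNA sequencing in 24 libraries, and the submitters' processing notes name kallisto 0.44.0, sleuth 0.30.0 and GRCm38. The authors deposited 1 table per experiment of signal values headed as TPM. Its columns sum to 796668 to 1810667, so the deposited signal was treated as scaled TPM; tables were normalized separately and tested separately. The authors' result tables give a p-value, a q-value and a coefficient in natural log units, converted here to log2. Read counts were not used here: depth is unknown, and intervals that need it are left out.

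The test was limma 3.58.1 in R 4.3.3 (lmFit, eBayes with trend), two-sided, on log2(scaled TPM + 1), for genes at 1 or more in at least 3 libraries: 13509, 12240 and 12775 genes in the 3 tables. A single fit with 4 group means took the 12 libraries of monolayers and spheroids; the Snail and BRCA1 tables had a fit each. The design had been written for plain TPM and was kept. Errors are SE for fold changes and SD for levels, n = 3. Scripts were tested on simulated data. Pandas 2.3.3 read the tables. Genes were placed on GENCODE M21 and promoters came from RefSeq (GRCm38.p6). All columns were mapped to samples by name, with BRCA1 columns headed Ctrl read as the GFP controls and those headed BRCA as the Cre libraries.

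The members and lists were chosen with earlier results of these data known. Library values were printed for the called members with the 4 largest changes per list and comparison, and for Hspa5, Xbp1, Atf4 and Ddit3; other genes named with values were chosen for their role or after their values were seen. In each of 4 lists of other pathway genes, up to 3 called genes were eligible by name. Alternatives covered the pseudocount, the filter, equal sums, library quality weights, a replicate block, fits of 6 libraries and leaving out each library; median centring and control 2 alone were added after seeing the data.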

Additional observations from a re-analysis of the deposited data

Results flagged for a closer look

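For 12 of the 42 genes the TGFB1 effect in spheroids differed from that in monolayers by the test of the difference itself (limma, 12 libraries, log2 scale, effect in spheroids minus effect in monolayers). The ER genes with a lower effect in spheroids were Hsp90b1 (-1.15), Hyou1 (-1.09), Hspa5 (-1.01), Eif2ak3 (-0.96), P4hb (-0.90), Creld2 (-0.85), Canx (-0.79), Sel1l (-0.68) and Pdia4 (-0.47). Ern1 had a higher effect in spheroids (0.56), and was not called with columns scaled to equal sums. Of the ATF4-type genes, Cebpb had a higher effect in spheroids (2.12) and Gdf15 a lower one (-1.79). Adjusted p-values ran from 0.000995 for Hsp90b1 to 0.0346 for Hspa5. The timing of TGFB1 and the origin of the libraries cannot be told apart from culture form in this difference. Without TGFB1 monolayer 1 the differences of Hspa5 (adjusted p = 0.073), Eif2ak3 (adjusted p = 0.0658) and Sel1l (adjusted p = 0.0544) no longer passed.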

How the results depend on the processing

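Of the named genes that passed, all 8 kept their call and direction under every alternative run for untreated spheroid culture, and so did 5 of 7 for TGFB1 in monolayers, 4 of 8 for TGFB1 in spheroids, 8 of 11 for spheroid culture with TGFB1, 4 of 6 for the interaction and 0 of 8 for the BRCA1 deletion. Library quality weights could not be fitted for the BRCA1 table, since their estimation did not converge. The cause of the changes below was not tested.

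TGFB1 in monolayers (16 ER and 3 ATF4-type calls) gave 1 ATF4-type call with no filter, 11 with quality weights and 7 in the fit of 6 libraries, where 7.06%, 47.6% and 30.7% of all genes were called in place of 16.9%; leaving out a library gave 8 to 13 ER and 1 to 3 ATF4-type calls. TGFB1 in spheroids (5 and 4) gave 8 ER calls with equal sums, 9 and 7 with quality weights, and 2 and 2 in the fit of 6 libraries (39.5%, 38.3% and 21.6% of all genes, in place of 35.6%); leaving out a library gave 3 to 8 and 2 to 7. The interaction (10 and 2) gave 19 ER calls with equal sums and 18 and 4 with quality weights (19.6% and 32.5% of all genes, in place of 15.8%). The BRCA1 deletion (7 and 3) gave 3 and 1 with no filter, 3 and 1 with equal sums, 0 and 1 against control 2 alone (4.46%, 6.77% and 5.03% of all genes, in place of 14.3%), and 1 to 14 and 0 to 10 with a library left out.

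Some changes that did not pass turned sign. Atf4 under TGFB1 in spheroids was at -0.013 with equal sums, -0.029 with quality weights and -0.14 without untreated spheroid 3, where its interaction was -0.053 and that of Ddit3 -0.092; without TGFB1 spheroid 3 the latter was -0.050. Over all libraries left out in turn, these interactions ran up to 0.42 (Atf4) and 0.723 (Ddit3). Under Snail, Hspa5 was at 0.036, 0.0038 and 0.033 without vector library 1, Snail library 2 and Snail library 3, Xbp1 at 0.014 without vector library 1, and Atf4 at -0.012 without vector library 3 and at -0.009 without Snail library 1; with 1 library left out Hspa5 went down to -0.062. In the BRCA1 deletion Atf4 was at 0.49 with equal sums, 0.53 against control 2 alone, and 0.061, 0.13 and 0.024 without controls 1 and 3 and Cre library 3, and went down to -0.344 without control 2. The median of the ATF4-type list was 0.14 for TGFB1 in spheroids and 0.18 for the interaction, and -0.040 and -0.039 with equal sums.

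The titles do not say that replicate numbers pair the libraries. Correlations of same-numbered deviations from group means ran from -0.32 to 0.19 (monolayers and spheroids), from -0.078 to 0.33 (Snail experiment) and from -0.17 to -0.053 (BRCA1 experiment). They cannot exclude pairing, since the deviations within a group of 3 are tied to each other. With the replicate number as a block, the BRCA1 deletion gave 2 ER and 1 ATF4-type calls (3.39% of all genes); the block moved no other count of calls by over 1.5 times.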
